A study of Mus musculus with 12 samples.

Results

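The 8 lysosomal cathepsins examined here were Ctsa, Ctsb, Ctsd, Ctse, Ctsh, Ctsl, Ctss and Ctsz, taken by name from the 21853 genes of an expression table of mouse whole bone marrow. The table gives FPKM, fragment counts divided by the length of the transcript and by the mapped total of its library, so levels can be set side by side between genes. The marrow came from B6 mice and was collected at 14 days after total body irradiation (TBI) of the irradiated groups. Control mice were not irradiated. The TBI mice received 5 Gy of gamma rays at 0.66 Gy/min and 100 µL of olive oil, the vehicle, by mouth. The TBI+DEIX mice received the same irradiation and daily oral DEIX (25 mg/kg) over 14 days. The DEIX mice received DEIX without irradiation, and the dose is stated for DEIX as a whole and not separately for them. No vehicle for DEIX and no age of the mice is stated. The series title names deinoxanthin, a carotenoid pigment of the bacterium Deinococcus. Neither a gavage nor a vehicle is stated for control mice, and the effect of dosing cannot be told apart from the other differences from control. Each of the 4 groups had 3 libraries, 12 in all. The labels do not say whether each library came from its own mouse, so p-values measure the spread between these libraries, which may be technical.

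Cathepsins are proteases that are made as inactive precursors, carried to the lysosome mostly on mannose 6-phosphate receptors, and activated there at acid pH. Most are cysteine proteases, held in check outside the lysosome by cystatins and stefins. Ctsd and Ctse are aspartic proteases, and Ctsa is a serine carboxypeptidase that also protects the lysosomal enzymes neuraminidase 1 and beta-galactosidase. In marrow, macrophages, monocytes and neutrophils are rich in lysosomal proteases, and whole marrow mixes these cells with erythroid and lymphoid cells. In such bulk samples, fewer cells of a type and less RNA per cell cannot be told apart.

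On the GRCm38 mouse genome, with GENCODE vM21 coordinates, the aspartic protease genes were Ctsd (ENSMUSG00000007891.16, chromosome 7, 142375911 to 142388038, minus strand) and Ctse (ENSMUSG00000004552.16, chromosome 1, 131638306 to 131675505, plus strand). The carboxypeptidase gene was Ctsa (ENSMUSG00000017760.16, chromosome 2, 164832873 to 164841032, plus strand). The cysteine protease genes lay on 5 chromosomes. Ctsb (ENSMUSG00000021939.8) was at chromosome 14, 63122462 to 63145923, plus strand. Ctsh (ENSMUSG00000032359.14) was at chromosome 9, 90054152 to 90076089, plus strand. Ctsl (ENSMUSG00000021477.9) was at chromosome 13, 64359337 to 64370890, minus strand. Ctss (ENSMUSG00000038642.10) was at chromosome 3, 95526786 to 95556403, plus strand. Ctsz (ENSMUSG00000016256.10) was at chromosome 2, 174427493 to 174439039, minus strand.

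Promoters of lysosomal genes are known for the letters CACGTG within the longer TCACGTGA, to which the transcription factor TFEB and its relatives bind. RefSeq promoters on GRCm38.p6, running from 250 bases before an annotated start to 50 after it, were found for 5 of the 8 genes (Ctsa, Ctsd, Ctsl, Ctss and Ctsz), and Ctsa had 2 such starts. Ctsd is shown because its difference between TBI+DEIX and control passed the threshold given below in the main fit, though not in most alternatives. Ctsa and Ctss are shown because their levels varied together across the libraries while their promoters differed in these letters. Capitals mark CACGTG in Ctsa and Ctsd, and GAGGAA or its reverse complement TTCCTC in Ctss, letters that the myeloid factor PU.1 can bind. Ctsd is at chr7:142387778-142388077 on the minus strand, Ctsa at chr2:164833523-164833822 on the plus strand, and Ctss at chr3:95526536-95526835 on the plus strand. All are written 5′ to 3′ along the gene.
Ctsd: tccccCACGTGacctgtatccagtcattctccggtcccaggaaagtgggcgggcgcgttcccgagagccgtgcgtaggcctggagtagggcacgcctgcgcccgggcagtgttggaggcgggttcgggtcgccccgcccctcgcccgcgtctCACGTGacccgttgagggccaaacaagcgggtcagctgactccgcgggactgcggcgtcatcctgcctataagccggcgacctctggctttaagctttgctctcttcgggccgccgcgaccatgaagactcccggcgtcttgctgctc
Ctsa: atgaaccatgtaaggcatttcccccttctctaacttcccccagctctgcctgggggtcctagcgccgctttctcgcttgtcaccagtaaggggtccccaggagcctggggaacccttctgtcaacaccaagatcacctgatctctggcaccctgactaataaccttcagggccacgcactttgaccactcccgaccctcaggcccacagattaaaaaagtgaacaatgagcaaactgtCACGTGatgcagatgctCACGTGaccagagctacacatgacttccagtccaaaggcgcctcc
Ctss: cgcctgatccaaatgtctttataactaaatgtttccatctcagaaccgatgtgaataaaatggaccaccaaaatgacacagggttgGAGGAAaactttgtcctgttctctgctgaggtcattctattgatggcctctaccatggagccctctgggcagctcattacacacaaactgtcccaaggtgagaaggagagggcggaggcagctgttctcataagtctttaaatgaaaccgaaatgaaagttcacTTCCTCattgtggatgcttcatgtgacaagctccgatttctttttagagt

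The Ctsa window held 2 copies of CACGTG, both within TCACGTGA. The Ctsd window held 2 copies, 1 of them within TCACGTGA, and the Ctsl window held 1 copy outside it. No copy was found in the Ctss or Ctsz window or at the other Ctsa start. CACGTG, the same on both strands, was present in 7.15% of 32841 RefSeq promoters of that length, and TCACGTGA in 0.974%. Ctss held GAGGAA or TTCCTC at 2 places, letters found on either strand in 28.3% of promoters. These matches describe the letters only, and no binding was measured.

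Each library had from 10359 to 10832 genes at 1 FPKM or more, and the FPKM of a library summed to between 493683 and 848843. Total reads are unknown, but the lowest values step in whole reads, and 1 read was worth 1.51 to 2.35 times as much in the TBI+DEIX libraries as in control replicate 1. It was worth 0.895 to 1.65 times as much in the other groups, so TBI+DEIX held the 2 shallowest libraries, and its low values are the least precise. TBI+DEIX replicate 1 stood apart, with a median correlation across genes of 0.934 with the other libraries against 0.962 to 0.975 for the rest. The cathepsin differences that involve its group are therefore also given without it, as are the main counts of the gene lists. Defining markers of the marrow's main lineages were detected in every group, which fits the label of whole marrow. Of 7 osteoclast markers, 1 was at 0 in all DEIX libraries.

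All 8 cathepsins were detected in all 12 libraries. In control marrow their levels ran in the order Ctsd, Ctss, Ctsb, Ctsz, Ctse, Ctsa, Ctsh and Ctsl, and Ctsz and Ctse were the neighbours whose libraries overlapped. Ctsd had a mean FPKM above that of 98.1% of the 10994 genes tested, and Ctsl above that of 58.2%, with the other 6 genes between 87.0% and 96.5%. Control libraries were close to each other for every cathepsin, with coefficients of variation from 1.68% for Ctss to 9.48% for Ctsl. In TBI+DEIX the coefficient ran from 6.50% for Ctsz to 48.2% for Ctss.

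**Figure D1:**
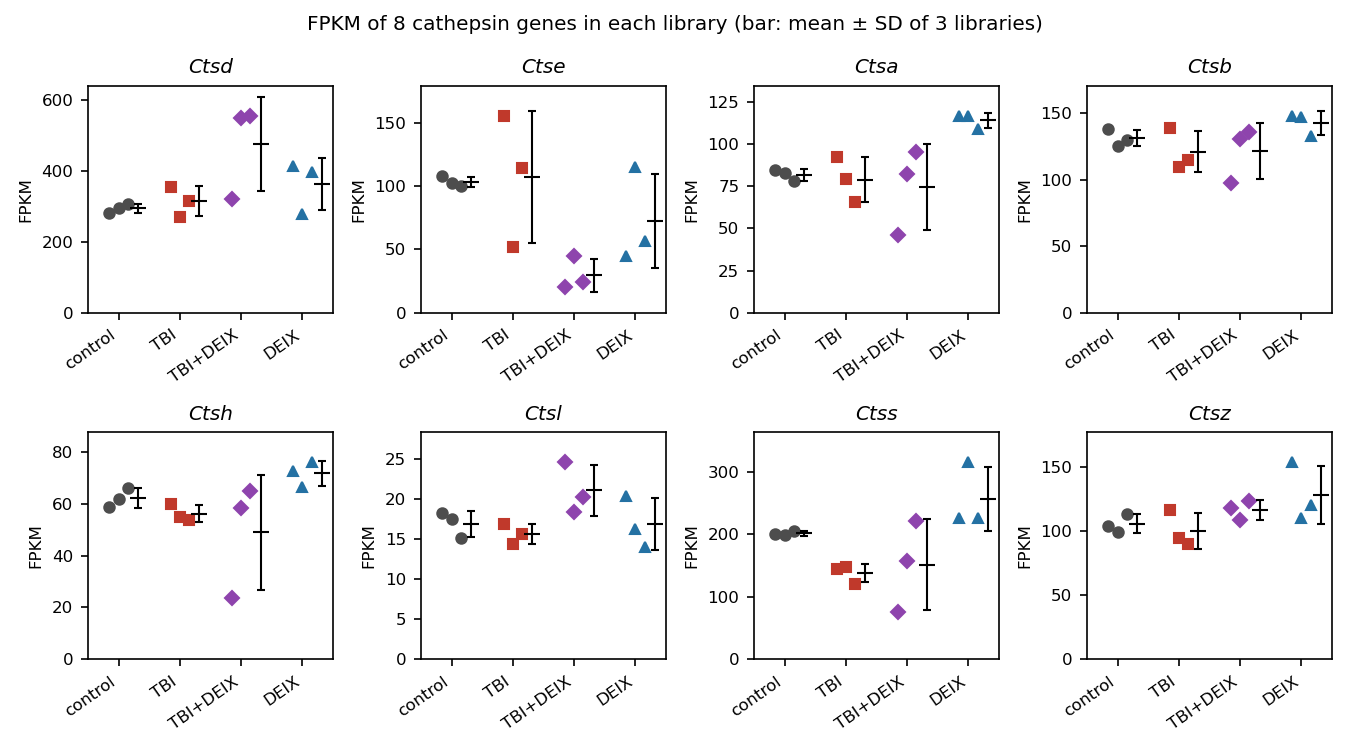
FPKM (linear axis from 0) of each of the 8 cathepsins in each library by group, with points for libraries and lines for the group mean and SD (n = 3). Ctse in TBI+DEIX, from 20.1 to 44.6, lies below every control and TBI library, and the 2 highest Ctsd values, 549 and 555, are both from TBI+DEIX.

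Differences were tested with limma on log2(FPKM + 1), in 1 fit of all 12 libraries and 10994 genes. Calls needed a p under 0.05 after Benjamini-Hochberg adjustment over all genes tested, and a difference is the log2 value of the first group minus that of the second.

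Ctse, an aspartic protease that is abundant in red cells and their precursors, varied most of the 8 genes over the libraries. Its control libraries were at 108, 103 and 100 FPKM, and its TBI libraries at 156, 51.9 and 115. Its TBI+DEIX libraries were at 20.1, 44.6 and 24.3, and its DEIX libraries at 45.2, 115 and 57.1. The TBI+DEIX values were low in all 3 libraries and did not overlap control or TBI, while TBI and DEIX each ranged over more than the whole control spread. Means were 104 ± 3.88 (control), 108 ± 52.4 (TBI), 29.7 ± 13.1 (TBI+DEIX) and 72.4 ± 37.3 (DEIX) (SD, n = 3). Only TBI+DEIX stood apart from a neighbour in this order, since TBI, control and DEIX overlapped, and TBI+DEIX and DEIX did not overlap by a narrow margin, 44.6 against 45.2.

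Ctsd, the main aspartic endopeptidase of lysosomes, was the most abundant cathepsin. It had 280, 295 and 306 FPKM (control), 355, 270 and 316 (TBI), 322, 549 and 555 (TBI+DEIX) and 413, 279 and 396 (DEIX). TBI+DEIX lay above control in all 3 libraries but overlapped TBI through its replicate 1. Means were 294 ± 12.9, 314 ± 42.5, 475 ± 133 and 362 ± 72.9 in the same order of groups (SD, n = 3). Control, TBI and DEIX overlapped one another.

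Ctsa, the carboxypeptidase, had 84.3, 82.7 and 77.8 FPKM in control and 92.0, 79.1 and 65.6 in TBI. It had 46.2, 82.1 and 95.3 in TBI+DEIX and 117, 117 and 109 in DEIX. The 3 DEIX libraries were close together and above all other libraries. Control, TBI and TBI+DEIX overlapped, with means of 81.6 ± 3.35, 78.9 ± 13.2 and 74.5 ± 25.4 against 114 ± 4.59 in DEIX (SD, n = 3).

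Ctss, a cysteine protease that trims the invariant chain of MHC class II in antigen-presenting cells and stays active at neutral pH, was second in control. Its libraries were at 201, 198 and 205 FPKM (control), 144, 147 and 121 (TBI), 75.7, 158 and 221 (TBI+DEIX) and 227, 316 and 227 (DEIX). TBI lay below control and DEIX above control without overlap, and TBI+DEIX spanned from below all TBI libraries to above all control libraries. Means were 201 ± 3.38, 137 ± 14.4, 152 ± 73.1 and 257 ± 51.3 (SD, n = 3).

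Ctsb, a cysteine protease that cuts both inside proteins and from their ends, was steady. It had 138, 125 and 130 FPKM (control), 139, 109 and 115 (TBI), 97.5, 131 and 136 (TBI+DEIX) and 148, 147 and 132 (DEIX). Every group overlapped every other, and all values lay within a 1.52-fold range. Ctsh, mainly an aminopeptidase, had 58.9, 61.9 and 66.2 FPKM (control), 60.0, 55.1 and 53.8 (TBI), 23.7, 58.3 and 65.1 (TBI+DEIX) and 72.8, 66.5 and 76.2 (DEIX). DEIX lay above control by a narrow margin, 66.5 against 66.2, and the lowest value was TBI+DEIX replicate 1.

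Ctsl, a cysteine endopeptidase of broad expression, was the least abundant of the 8 genes. It had 18.2, 17.4 and 15.1 FPKM (control), 16.8, 14.3 and 15.6 (TBI), 24.6, 18.3 and 20.2 (TBI+DEIX) and 20.4, 16.3 and 13.9 (DEIX). TBI+DEIX lay above both control and TBI, and its replicate 1, lowest of the 12 libraries for Ctsa, Ctsb, Ctse, Ctsh and Ctss, was highest here. Ctsz, a carboxypeptidase of the cysteine class, had 104, 99.0 and 114 FPKM (control), 116, 94.6 and 89.7 (TBI), 118, 108 and 123 (TBI+DEIX) and 154, 110 and 121 (DEIX). All groups of Ctsz overlapped.

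The summed FPKM of the 8 genes was 993, 983 and 1014 (control), 1079, 822 and 891 (TBI), 727, 1149 and 1241 (TBI+DEIX) and 1197, 1166 and 1132 (DEIX). DEIX lay above control without overlap, and TBI+DEIX overlapped every other group. Ctsd took 29.5 ± 1.08% of it in control, 33.7 ± 1.46% (TBI), 45.6 ± 1.93% (TBI+DEIX) and 31.1 ± 6.25% (DEIX) (SD, n = 3). The lowest Ctsd share in TBI+DEIX, 44.2%, was above the highest of any other library, 35.4%. Ctse took 10.4 ± 0.49% (control) and 2.87 ± 0.96% (TBI+DEIX), and Ctss 20.2 ± 0.035% in control against 14.0 ± 3.72% (TBI+DEIX). These shares are descriptions, and a rise in one lowers the others.

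**Figure D2:**
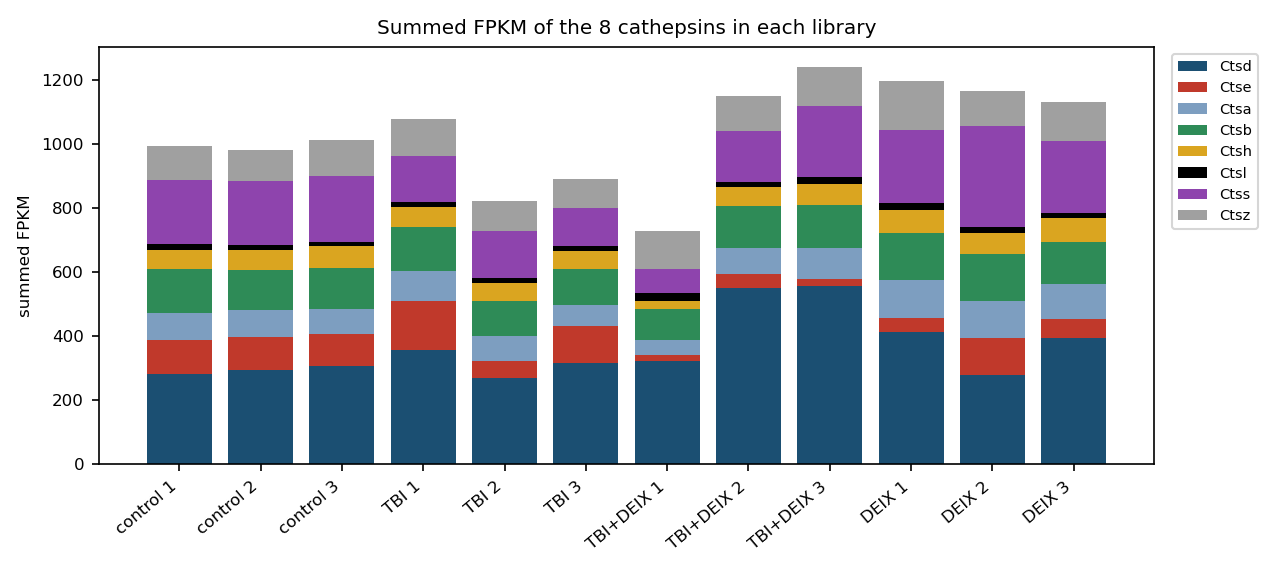
Stacked bars of the FPKM of the 8 cathepsins in each of the 12 libraries, from 0. Ctsd makes up 44.2% to 47.8% of the bar in the TBI+DEIX libraries and 23.9% to 35.4% in the others, while Ctse shrinks to 1.96% to 3.88% in TBI+DEIX.

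Whether DEIX changed the marrow of irradiated mice was addressed by TBI+DEIX against TBI. Ctse was lower with DEIX in all 3 libraries, at 29.7 against 108 FPKM. The difference of -1.77 (SE 0.43, 95% interval -2.70 to -0.83) was called by limma with an adjusted p of 0.0339, and its size is 3.40-fold on this scale. Ctse was the only 1 of the 8 called, where 8.10% of all genes tested were called. Ctsl lay higher without overlap at 21.0 against 15.6 FPKM (0.40, SE 0.15, adjusted p = 0.108), and Ctsd had 475 against 314 FPKM (0.56, SE 0.22, adjusted p = 0.135); neither was called. Unadjusted p-values, which are 2-sided, were under 0.05 for these 3 genes. Groups did not overlap for 2 of the 8 genes, Ctse and Ctsl, against 27.2% of all genes tested. The median difference was 0.01 for the cathepsins and 0.00 for all genes tested.

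The Ctse call in this comparison was lost at an adjusted p of 0.0614 without the filter on low values, 0.0610 with array weights, which give less weight to libraries that stray from their group (difference -0.91, in a fit that called Ctsd at 0.93 and Ctsl at 0.36, adjusted p = 0.000382 and 0.0247), and 0.150 in a fit of the 6 libraries alone, in which no gene was called. It was also lost with a term for replicate number (the replicate block), and without TBI replicate 1 (0.0709), TBI replicate 3 (0.143) or TBI+DEIX replicate 3 (0.103). Without TBI+DEIX replicate 1, Ctse stayed called (-1.54, adjusted p = 0.0341) and Ctsd was called as well (0.82, adjusted p = 0.0101), while Ctsa, Ctsb and Ctsh, none of them called, moved from -0.13, -0.0035 and -0.32 to 0.18, 0.15 and 0.13. Ctsl and Ctsz had 0.29 and 0.21 without that library. Ctss, at 0.02, had 0.45 without it and -0.09 when values were scaled to the sum less S100a8, S100a9 and Ngp.

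TBI+DEIX against control combines both treatments. Ctse was again lower in all 3 libraries, 29.7 against 104 FPKM, by -1.85 (SE 0.43, 95% interval -2.78 to -0.91, limma adjusted p = 0.00835), a size of 3.60-fold. Ctsd was higher in all 3 libraries, 475 against 294 FPKM, by 0.65 (SE 0.22, 95% interval 0.16 to 1.14, adjusted p = 0.0487), a size of 1.57-fold. So 2 of the 8 genes were called, where 30.0% of all genes tested were called, a share near that background. Ctsd and Ctsl lay higher and Ctse lower without overlap, 3 of 8 against 44.9% of all genes tested. Ctsl had a difference of 0.29 (adjusted p = 0.154), Ctss -0.54 (adjusted p = 0.205) and Ctsh -0.46 (adjusted p = 0.241). Comparisons with TBI and with control share the TBI+DEIX libraries, so the Ctse values in them are not separate evidence.

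Ctse stayed called against control under every alternative run, with differences from -2.18 to -1.56. The Ctsd call was lost without the filter on low values (adjusted p = 0.0730), with median-of-ratios scaling (0.0694), in a fit of the 6 libraries alone (0.109), without control replicate 1, 2 or 3 (0.123, 0.116 and 0.0982) and without TBI+DEIX replicate 2 or 3 (0.133 and 0.141). The Ctsd call was also lost with the replicate block. Without TBI+DEIX replicate 1 both calls were kept, Ctsd at 0.91 (adjusted p = 0.00218) and Ctse at -1.62 (0.0178). The uncalled differences of Ctsa, Ctsb, Ctsl, Ctss and Ctsz were then 0.12, 0.02, 0.18, -0.11 and 0.13, and that of Ctsh was -0.015. Without TBI+DEIX replicate 3, Ctss was called lower (-0.87, adjusted p = 0.0367).

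Irradiation with vehicle against control asks what irradiation changed at this time. No cathepsin of the 8 was called by limma, none had an unadjusted p under 0.05, and 3.99% of all genes tested were called. Ctss had 137 against 201 FPKM and was the only 1 of the 8 without overlap, on the lower side, where 16.3% of all genes tested were lower without overlap. Its difference was -0.55 (SE 0.30, 95% interval -1.22 to 0.11, adjusted p = 0.370), and in a fit of these 6 libraries alone its adjusted p was 0.0117. Ctse, Ctsd and Ctsa had -0.08 (SE 0.43), 0.09 (SE 0.22) and -0.06 (SE 0.22). For Ctse the mean FPKM ran the other way from the log2 value, at 108 in TBI against 104 in control. The interval for Ctse, -1.02 to 0.85, leaves room for a change in either direction, and the 3 TBI libraries spanned 3.00-fold. Array weights called Ctss (adjusted p = 0.00370), Ctsb (0.0469) and Ctsl (0.0408), all lower.

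DEIX without irradiation was compared with control. No cathepsin was called by limma and none had an unadjusted p under 0.05, where 7.24% of all genes tested were called. Ctsa, Ctsh and Ctss lay higher in all 3 DEIX libraries without overlap, 3 of 8 against 23.4% of all genes tested that were higher without overlap. Ctsa had 114 against 81.6 FPKM (0.48, SE 0.22, 95% interval -0.01 to 0.96, adjusted p = 0.208). Ctss had 257 against 201 FPKM (0.33, SE 0.30, adjusted p = 0.548) and Ctsz 128 against 106 FPKM (0.26, SE 0.14, adjusted p = 0.277). Ctse had 72.4 against 104 FPKM (-0.62, SE 0.43, adjusted p = 0.398). In a fit of the 6 libraries alone Ctsa was called (adjusted p = 0.00801), and array weights called Ctsa (0.00382), Ctsd (0.0295) and Ctsz (0.0142), all higher. The median difference was 0.23 for the cathepsins and 0.02 for all genes tested.

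The interaction asks whether the DEIX difference itself differed between irradiated and unirradiated mice. None of the 8 genes was called by limma, none had an unadjusted p under 0.05, and 0.200% of all genes tested were called. Adjusted p-values of the cathepsins ran from 0.731 to 0.999. The Ctse value was -1.14 (SE 0.60, 95% interval -2.46 to 0.18), the Ctsa value -0.61 (SE 0.31, -1.29 to 0.08) and the Ctsl value 0.42 (SE 0.21, -0.04 to 0.87). Without TBI+DEIX replicate 1 these were -0.91, -0.30 and 0.31, also uncalled. Ctsd moved from 0.28 to 0.54, Ctsh from -0.52 to -0.073, Ctsb from -0.12 to 0.027, Ctss from -0.31 to 0.12 and Ctsz from -0.042 to -0.050, and none of these was called in either fit. A Ctse difference called under irradiation and not without it is thus not shown to differ between the 2 settings.

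**Figure D3:**
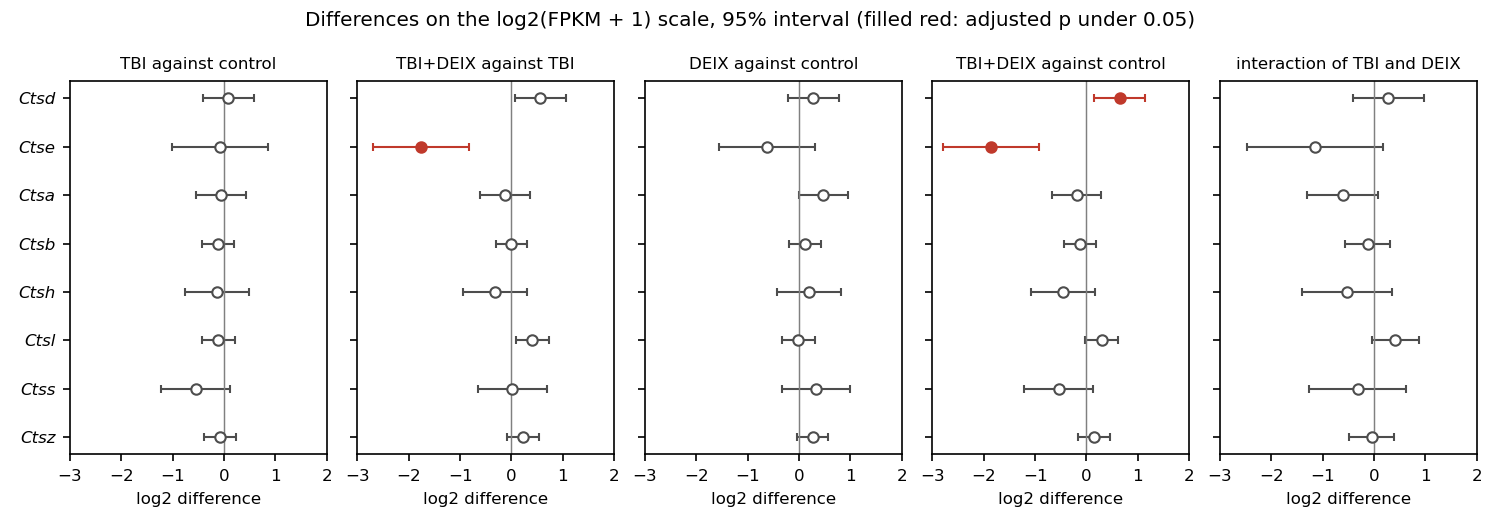
Log2 differences of FPKM + 1 with 95% intervals for the 8 cathepsins in the 5 comparisons. Filled points mark the 3 calls, Ctse at -1.77 and -1.85 and Ctsd at 0.65, and every interval of the interaction includes 0.

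Across the 12 libraries Ctsa, Ctsb, Ctsh and Ctss varied together, with Pearson r of log2(FPKM + 1) from 0.814 to 0.899 among their 6 pairs and 0.766 to 0.908 after each group's mean was removed. Ctse ran the other way from Ctsl (r = -0.611) and from Ctsd (r = -0.534) over all libraries, but within groups these were -0.164 and 0.165. All values of a library share its depth and its scaling, so these correlations only describe the libraries.

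Among 6336 named genes whose mean FPKM was 10 or more, those closest to each cathepsin over the 12 libraries were listed by r. Closest to Ctse were Nxpe2 (0.975) and Trim10 (0.973). Closest to Ctsd were Rnf41 (0.982), Tor4a (0.970) and Plekhm1, an adaptor in lysosome fusion (0.968). Closest to Ctsa were Ccr2, the chemokine receptor of inflammatory monocytes (0.970), Spidr (0.966) and Capn2, a calpain (0.949). Ccr2 averaged 135 FPKM (control), 141 (TBI), 107 (TBI+DEIX) and 252 (DEIX).

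For the cysteine proteases, Ctsh was closest to Psap, the precursor of the lysosomal saposins (0.982), Ms4a4c (0.966) and S100a4 (0.961). Ctss was closest to Laptm4a, a lysosomal membrane protein (0.973), Bnip3 (0.965) and Clec4a3, a lectin receptor of myeloid cells (0.950). Ctsz was closest to Rrbp1 (0.932), Ctns, the lysosomal cystine transporter (0.931), and Tor1a (0.912). Ctsb was closest to Zfp703 (0.903), Ctsa (0.894) and Ggh, gamma-glutamyl hydrolase (0.893). The least close matches were those of Ctsl, with Cd38 (0.894), the acute-phase gene Saa3 (0.845) and Trim41 (0.836).

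The Ctse values moved with erythroid markers. The summed FPKM of the 12 erythroid markers in the table (of 13 listed) ran from 4777 to 7868 (control), 2476 to 12208 (TBI), 258 to 2217 (TBI+DEIX) and 1891 to 11303 (DEIX). All 12 had a negative difference in TBI+DEIX against TBI and against control, and none was at 0 throughout a group. The markers called lower numbered 4 against TBI, where 3.41% of all genes tested were called lower, and 9 against control, where 13.1% were. These counts depended on single libraries. The 4 became 0 without TBI replicate 1, TBI replicate 3 or TBI+DEIX replicate 3, 5 without TBI replicate 2 or TBI+DEIX replicate 1, and rose to 10 when TBI+DEIX replicate 2 was left out. Against control the count became 0 without control replicate 3, 2 without control replicate 1, control replicate 2 or TBI+DEIX replicate 3, and 3 when TBI+DEIX replicate 1 was left out. TBI replicate 2, lowest in Ctse among TBI libraries, also had the lowest erythroid sum there, and DEIX replicate 2, highest in Ctse among DEIX libraries, had the highest. Over the 12 libraries Ctse and the mean centred log2 level of the list had r = 0.976 and rho = 0.944. The r was 0.939 without the 2 libraries farthest from the median, TBI+DEIX replicates 1 and 3, and 0.954 within groups. The part of erythroid cells in the Ctse differences was not tested.

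Ctsa moved with monocyte markers (r = 0.927, rho = 0.916, and 0.941 within groups). The 9 monocyte markers summed to 1951 to 1992 FPKM (control), 1351 to 2146 (TBI), 816 to 2641 (TBI+DEIX) and 2329 to 2691 (DEIX), a sum carried mostly by Ly6c2. All 9 had a positive difference in DEIX against control, with 3 called higher (1 to 3 with a library left out) against 4.52% of all genes tested. In TBI+DEIX 7 of the 9 had a negative difference against TBI, with 2 called lower against 3.41% of all genes, and against control, with 3 called lower against 13.1%. With a library left out these counts ran from 0 to 2 and from 2 to 4. The 2 called against TBI became 0 without TBI replicate 2, TBI replicate 3 or TBI+DEIX replicate 3. In the interaction 1 was called lower, where 0.200% of all genes were called in either direction, and 4 without TBI+DEIX replicate 1, where 3.0% were. TBI+DEIX replicate 1 had the lowest monocyte sum and the lowest Ctsa, Ctsb, Ctsh and Ctss of the 12 libraries. Ctss, Ctsb and Ctsh had r of 0.771, 0.758 and 0.717 with the monocyte list (0.836, 0.840 and 0.739 within groups). Ctss and Ctsh were about as close to the 7 T and NK cell markers, with r of 0.739 and 0.679, and 0.883 and 0.912 within groups. The 15 macrophage markers summed to 211 to 263 FPKM in DEIX, below the 313 to 380 of control. They summed to 231 to 325 with TBI and to 332 to 503 for TBI+DEIX. Slc40a1 and Hmox1 had the highest levels of the 15, with means of 93.8 and 67.9 FPKM in control and 93.8 and 50.4 in DEIX. Of the 14 tested, 8 were called lower in DEIX against control (2.72% of all genes) and 3 in TBI against control (3.10%). The 8 became 5 without any control library or DEIX replicate 1, 6 with DEIX replicate 2 left out, and 7 when it was DEIX replicate 3. The 3 became 2 without TBI replicate 1 and 0 without any other library of the comparison. In TBI+DEIX against TBI 3 were called higher (4.69% of all genes), and 5 had a positive interaction call (0.200% of all genes were called there in either direction). Without TBI+DEIX replicate 1 the counts in TBI+DEIX against TBI and in the interaction were 7 and 8, where 16.2% and 2.6% of all genes were called higher. Over all libraries left out these counts ran from 0 to 7 and from 0 to 8. The highest r of a cathepsin with the macrophage list was 0.263, for Ctsl, which turned to -0.367 within groups, where the highest was 0.398, for Ctsa. The part of these cells in the cathepsin levels was not tested.

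Ctsd had its highest r, 0.780 (rho = 0.699, and 0.886 within groups), with 9 neutrophil markers, counted without S100a8, S100a9 and Ngp, whose estimates are listed at 0 in some libraries. Those markers summed to 23045 to 32571 FPKM (control), 25696 to 32931 (TBI) and 27282 to 38672 (DEIX). In TBI+DEIX they summed to 21825, 51149 and 49523, low in replicate 1 and high in replicates 2 and 3, and Ctsd too was lower in replicate 1 than in the others. The markers did not move as 1 group in TBI+DEIX against control, where Cxcr2 and Ltf were called higher (1.06 and 1.03, adjusted p = 0.0142 and 0.0426) and Elane, an elastase of immature granules, lower (-0.94, 0.0208), with Mpo at -0.59 and Prtn3 at -0.20 and not called. Over all 12 neutrophil markers listed, the 2 called higher and 1 called lower were near or below the shares of all genes, 16.9% and 13.1%. The 2 became 5 without TBI+DEIX replicate 1, where 23.2% of all genes were called higher, and 1 without any other library of this comparison. The 1 became 0 without control replicate 2, control replicate 3 or TBI+DEIX replicate 2, and 2 with TBI+DEIX replicate 1 left out (15.4% of all genes). In TBI+DEIX against TBI the 0 called higher became 4 in that fit (16.2%). The part of neutrophils in the Ctsd difference was not tested. For Ctse, Ctsa and Ctsd the r with the 2 farthest libraries left out was 0.939, 0.920 and 0.717.

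**Figure D4:**
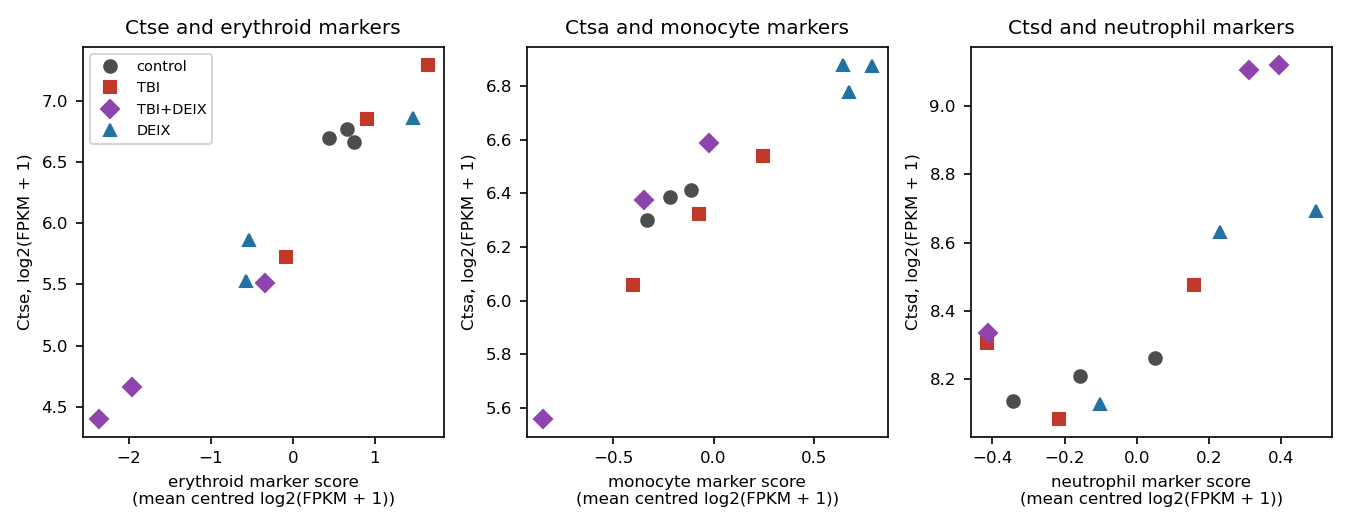
Log2(FPKM + 1) of Ctse, Ctsa and Ctsd against the mean centred log2 level of erythroid, monocyte and neutrophil markers, 1 point per library coloured by group. Pearson r over the 12 libraries is 0.976, 0.927 and 0.780.

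The genes that surround the cathepsins in the lysosome were read from lists of known members. Of 6 other cathepsin genes, Ctsk, the collagen-degrading cathepsin of osteoclasts, rose from 1.34 ± 0.54 FPKM in control to 7.32 ± 1.65 in TBI (1.84, SE 0.29, limma adjusted p = 0.00554). It was at 6.39 ± 2.36 in TBI+DEIX (1.64 against control, adjusted p = 0.00223) and 1.44 ± 0.85 in DEIX. Of the 7 osteoclast markers, which include Ctsk, 3 were tested, and Atp6v0d2 was also called higher in TBI (0.77, adjusted p = 0.0448) and TBI+DEIX (0.54, 0.0483) against control, while Acp5 was not called. The Atp6v0d2 calls were lost without any 1 of the libraries compared, except that the second was kept without TBI+DEIX replicate 1, while Ctsk was called with each of them left out. The 7 summed to 25.6 to 31.3 FPKM (control), 26.9 to 48.2 (TBI), 19.5 to 34.9 (TBI+DEIX) and 15.6 to 34.2 (DEIX). Of 9 markers of stroma, bone and endothelium, 5 were tested, of which Col1a1, a bone matrix collagen, was called higher in TBI (0.77, 0.0315) and Pecam1, an endothelial adhesion protein, lower, at 6.33 against 13.7 FPKM (adjusted p = 0.0078). The part of these cells in the Ctsk values was not tested. Ctso fell in TBI from 8.11 to 4.88 FPKM (-0.63, adjusted p = 0.0442) and was called in TBI+DEIX against control (-0.58, adjusted p = 0.0150), and the first call was lost without any 1 of the 6 libraries, with the pseudocount of 0.1, without the filter on low values, at a mean FPKM of at least 5 and with the sum scaling. The second was lost without control replicate 1 or 2 and in a fit of the 6 libraries alone. Among all genes tested 3.99% were called in TBI against control and 30.0% in TBI+DEIX against control. The other 4 of these 6 cathepsins were not called, although Ctsw was called higher in TBI+DEIX against TBI without TBI+DEIX replicate 1 (0.81, adjusted p = 0.0095). Among them Ctsg, a granule serine protease, had 301, 210, 260 and 348 FPKM in control, TBI, TBI+DEIX and DEIX, and Ctsc, the dipeptidyl peptidase that activates granule proteases, had 71.2, 93.0, 105 and 155.

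Of 8 cystatin and stefin inhibitors, 7 were tested. Cst3, the secreted cystatin C, had 540 FPKM (control), 390 (TBI), 398 (TBI+DEIX) and 504 (DEIX), and was not called. Stfa2l1, a stefin, was as abundant over the 12 libraries, with 293, 222, 843 and 481 FPKM in the same order, and was not called either. Stfa2 and Stfa3, cytosolic stefins, were called higher in TBI+DEIX against TBI (3.05 and 2.80, adjusted p = 0.0203 and 0.0251). Both calls were lost without TBI replicate 3 or TBI+DEIX replicate 3, and that of Stfa3 also without TBI replicate 2. Stfa1, Stfa2 and Stfa3 were called higher in TBI+DEIX against control (2.73, 4.26 and 3.08). In these fits 4.69% of all genes tested were called higher against TBI and 16.9% against control. The inhibitors called higher numbered 4 in both comparisons without TBI+DEIX replicate 1, Stfa2l1 among them, where 16.2% of all genes were called higher against TBI and 23.2% against control. Cst7 was then called lower against control. The stefin genes are near-identical copies, and how shared reads were divided is not known, so their single values are uncertain. In TBI+DEIX the summed inhibitors had 725, 1943 and 3747 FPKM against 883 to 1132 in control, so replicate 1 was below control.

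Of 10 genes that sort and activate lysosomal enzymes, Furin and Sort1 were called higher in DEIX against control, where 4.52% of all genes tested were called higher. The list had 2 called higher in TBI+DEIX against TBI (4.69% of all genes). It had 2 called higher in TBI+DEIX against control, near the 16.9% of all genes, and 1 called lower in TBI against control (3.10%). Furin, a proprotein convertase of the trans-Golgi, had 26.3 ± 0.42 FPKM (control), 30.5 ± 3.28 (TBI), 48.2 ± 1.28 (TBI+DEIX) and 42.2 ± 0.22 (DEIX) (SD, n = 3). Its differences were 0.65 in TBI+DEIX against TBI (adjusted p = 0.0102), 0.66 in DEIX against control (0.00390) and 0.85 in TBI+DEIX against control (0.000176). Both differences from control were called under every alternative run, while the call against TBI was lost without TBI replicate 3 and with values scaled to the sum less S100a8, S100a9 and Ngp. Sort1, the sorting receptor sortilin, had 51.4, 75.2, 89.2 and 81.8 FPKM and was called in DEIX against control (0.65, adjusted p = 0.0269) and in TBI+DEIX against control (0.78, 0.00303). The first Sort1 call was lost without control replicate 1, 2 or 3 or DEIX replicate 1 or 3. Lgmn, legumain, which processes several cathepsins, fell in TBI from 14.5 to 10.9 FPKM (-0.37, adjusted p = 0.0340, lost without any 1 of the 6 libraries) and was higher in TBI+DEIX against TBI (0.42, 0.0203, lost without TBI replicate 3 or TBI+DEIX replicate 3). M6pr, the mannose 6-phosphate receptor, stayed between 108 and 119 FPKM in the 4 group means and was not called. Leaving out TBI+DEIX replicate 1 gave 3 calls on the higher side against control and 2 against TBI, shares near the 23.2% and 16.2% of all genes. Gnptab, part of the enzyme that makes the mannose 6-phosphate tag, was then lower in both (-0.49 and -0.38, adjusted p = 0.0021 and 0.0163).

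Of 26 other lysosomal hydrolases, 9 rose in TBI+DEIX against control and 1 in DEIX against control (Asah1, acid ceramidase), and none was called lower in any comparison or called in TBI against control. The Asah1 call was lost without any 1 of its 6 libraries. Over all genes tested 16.9% were called higher in TBI+DEIX against control and 4.52% in DEIX against control. Neu1, the neuraminidase that Ctsa protects, rose from 26.6 ± 3.55 to 41.5 ± 1.65 FPKM (0.63, limma adjusted p = 0.00579), while Glb1, the beta-galactosidase of the same complex, had 10.9 and 10.1 FPKM and was not called. The count of 9 depended on single libraries: it was 2, 1 and 2 without control replicates 1, 2 and 3 and 3 without TBI+DEIX replicate 3, and it was 3 or 5 under the 2 other scalings. With TBI+DEIX replicate 1 left out it was 10, where 23.2% of all genes were called higher, and 2 hydrolases were then called lower, below the 15.4% of all genes.

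Of 14 subunits of the vacuolar ATPase, the pump that makes lysosomes acid, 3 rose in TBI+DEIX against control, a share near the 16.9% of all genes tested that were called higher. The 3 became 9 without TBI+DEIX replicate 1, where all genes called rose from 3299 to 4224 and 23.2% of all genes were called higher. Atp6v0a1 had 28.7 ± 1.84 FPKM (control), 35.5 ± 4.27 (TBI), 50.8 ± 0.87 (TBI+DEIX) and 37.9 ± 1.69 (DEIX), and its difference from control was 0.80 (adjusted p = 0.000358). It was also called in TBI+DEIX against TBI (0.51, 0.0194) and in DEIX against control (0.39, 0.0369). The first of these was lost without TBI replicate 2 or 3 or TBI+DEIX replicate 3 and when values were scaled to the sum less S100a8, S100a9 and Ngp, and the second without any control library or DEIX replicate 1 or 3 and under both other scalings. Of 10 lysosomal membrane genes, Lamp2 rose (0.61, adjusted p = 0.0230) and Npc2, a soluble cholesterol carrier listed with them, fell (-0.74, 0.0230) in TBI+DEIX against control. Of all genes tested 16.9% were called higher there and 13.1% lower. The Lamp2 call was lost without control replicate 1, 2 or 3 or TBI+DEIX replicate 3, and the Npc2 call without control replicate 2 or 3, and the Npc2 value was -0.43 without TBI+DEIX replicate 1. None of the 4 MiT transcription factors, the family of TFEB, was called in any comparison, with 1 unadjusted p under 0.05 in TBI against control and 1 in TBI+DEIX against TBI. Tfe3 and Tfeb were called higher against TBI once TBI+DEIX replicate 1 was left out (0.61 and 0.38, adjusted p = 0.0173 and 0.0351), where 16.2% of all genes were, and Tfe3 against control (0.81, 0.0021). The calls of Stfa2, Stfa3, Furin, Lgmn and Atp6v0a1 in TBI+DEIX against TBI were lost in a fit of those 6 libraries alone, with adjusted p from 0.144 to 0.150.

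MHC class II genes and the invariant chain Cd74, the substrate of Ctss, all had negative differences in TBI against control, DEIX against control and TBI+DEIX against control, 8 of 8 in each. Of these H2-DMb2 was called in TBI against control (-1.32, adjusted p = 0.0192, lost without any 1 of the 6 libraries), and H2-DMa and H2-DMb2 in TBI+DEIX against control (-1.31 and -1.49, adjusted p = 0.0133 and 0.00234, the first lost without control replicate 3). Both stayed called without TBI+DEIX replicate 1, at -0.79 and -1.13. Among all genes tested 3.10% were called lower in TBI against control and 13.1% in TBI+DEIX against control. Cd74 had 425 ± 43.2 FPKM (control), 192 ± 52.9 (TBI), 329 ± 218 (TBI+DEIX) and 275 ± 55.8 (DEIX), and was not called. When TBI+DEIX replicate 1 was left out it was called in TBI+DEIX against TBI (1.26, adjusted p = 0.0065) and in the interaction (1.90, 0.0065), and its difference from control turned from -0.72 to 0.088. Ctss lay below control in TBI and above control in DEIX without overlap, whereas the Cd74 mean was below that of control in both. B lineage markers summed to 385 to 464 FPKM (control), 28.7 to 357 (TBI), 6.63 to 179 (TBI+DEIX) and 58.5 to 92.5 (DEIX), and the 9 dendritic cell markers to 73.6 to 76.5, 32.2 to 44.4, at most 37.2 and 40.9 to 63.5 in the same order. Of 8 dendritic markers tested, 7 had a negative difference in TBI against control (2 called, where 3.10% of all genes were called lower) and 8 in TBI+DEIX against control (5 called, where 13.1% of all genes were, and also 5 without TBI+DEIX replicate 1). With a library left out the 5 ran from 4 to 7, and the 2 became 1 except without TBI replicate 3. Of the 9 B lineage markers, all negative in both, 1 and 7 were called. The 7 became 5 without control replicate 1 or 2, 4 without control replicate 3 and 6 without TBI+DEIX replicate 1, and rose to 8 when TBI+DEIX replicate 2 was left out. The part of these cells in the MHC class II values was not tested.

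**Figure D5:**
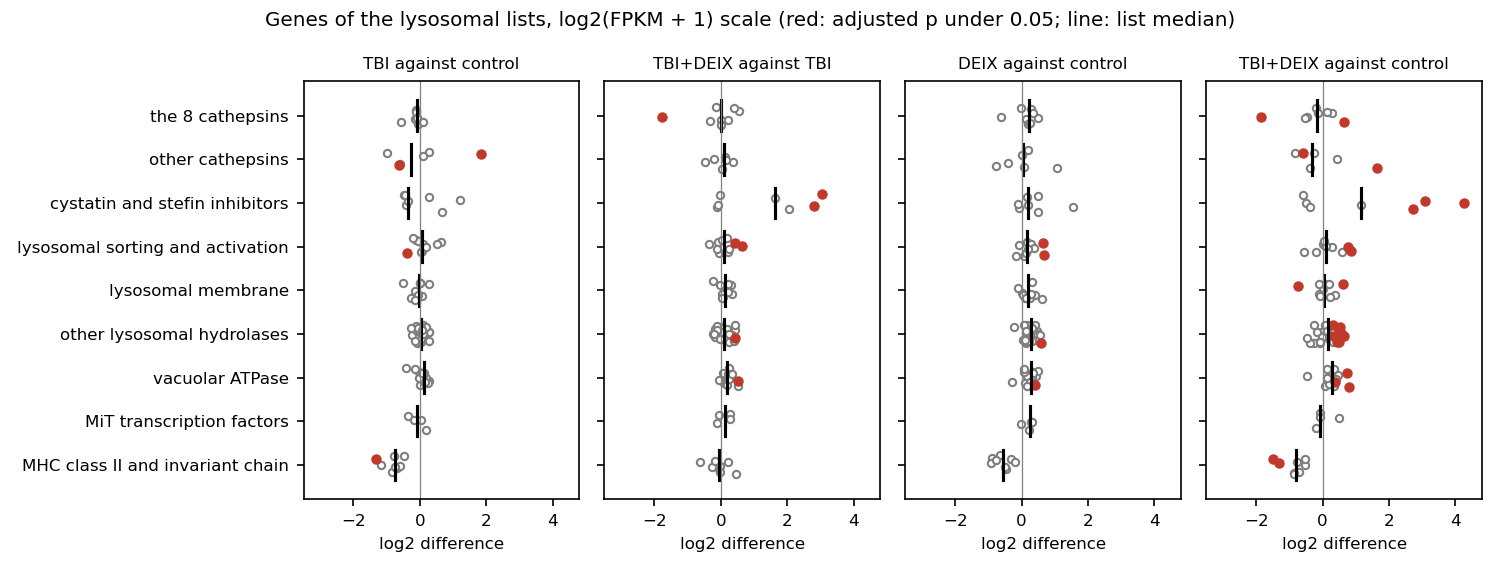
Log2 differences of FPKM + 1 for each tested gene of the cathepsins and the 8 pathway lists in 4 comparisons, with filled red points for called genes and a bar at each list's median. Most filled points are in TBI+DEIX against control, where Stfa2 at 4.26 is farthest from 0.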

How the data were processed

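Whole marrow of 4 groups with 3 libraries each was sequenced after a directional messenger RNA preparation, per the labels' protocols. The deposited values are FPKM, which the authors computed. STAR 2.6, Cufflinks 2.2.1 and mm10 are named in the submitters' processing notes, without their roles. All 21853 identifiers matched GENCODE vM21, and no counts were used. FPKM can move when a few abundant genes take more of a library, which the scaling alternatives address.

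Genes at 1 FPKM or more in at least 3 libraries, 10994 in all, were fitted on log2(FPKM + 1) with limma 3.58.1 in R 4.3.3 (1 mean per group, 12 libraries, eBayes with trend), which understates changes of low genes. The fit was tested on simulated data. It assumes 1 spread per gene, but the root mean square SD was 0.140 (control), 0.226 (TBI), 0.418 (TBI+DEIX) and 0.236 (DEIX). Groups follow the sample titles.

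The cathepsins, pathway lists and marker lists, and the rule for named genes, were chosen with earlier results of these data known. Named genes were all 8 cathepsins and, of each pathway list, the 3 of highest mean FPKM and up to 4 called genes of smallest adjusted p per comparison. For likeness, the 3 genes of highest r were taken. Some genes that these rules name are not reported here. Glb1, named for its complex with Ctsa, the single marker genes, and Cst7, Ctsw, Gnptab, Tfe3 and Tfeb were chosen after their values were seen. Alternatives were another pseudocount (0.1), no filter, a mean FPKM of at least 5, 2 scalings, array weights, a replicate block, the compared groups alone and each library left out. Promoter sequences came from RefSeq on GRCm38.p6.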

Additional observations from a re-analysis of the deposited data

How the results depend on the processing

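Over 40 cathepsin differences (8 genes in 5 comparisons) and 600 alternative values, 540 kept direction and side of the threshold, 16 lost a call, 12 gained one and 32 turned direction, none of the last on a called difference. Cathepsins called in TBI against control numbered 0, and 3 with array weights and 1 with only the compared groups, with 0 for every library left out. In DEIX against control the same numbers applied (0, 3, 1 and 0). In TBI+DEIX against TBI the 1 call became 0 without the filter, with the replicate block or with only those groups, 2 with array weights, and 0 to 2 with a library left out. In TBI+DEIX against control the 2 calls became 1 without the filter, with median-of-ratios scaling, with the replicate block or with only those groups, and 1 to 2 with a library left out. The interaction had 0 throughout.

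All genes called in TBI against control numbered 439, and 675 without the filter, 134 at a mean FPKM of at least 5, 4218 with array weights, 1417 with only those groups and 117 to 267 with a library left out. In TBI+DEIX against TBI they numbered 891, and 474 scaled to the sum less S100a8, S100a9 and Ngp, 474 with the replicate block, 4488 with array weights, 0 with only those groups and 5 to 2828 with a library left out. In DEIX against control 796 became 455 with that scaling, 4508 with array weights, 2057 with only those groups and 121 to 935. In TBI+DEIX against control 3299 became 6187 with array weights, 2181 with only those groups and 1971 to 4224. The interaction had 22 calls, and 11 with the pseudocount of 0.1, 37 without the filter, 7 at a mean FPKM of at least 5, 532 with array weights and 0 to 330. The share of calls that were higher moved with scaling to that sum from 57.9% to 30.2% in TBI+DEIX against TBI, 62.4% to 45.5% in DEIX against control, 56.2% to 38.3% in TBI+DEIX against control and 95.5% to 74.2% in the interaction, and with median-of-ratios scaling to 51.8% in DEIX against control and 47.2% in TBI+DEIX against control. Fits of single comparisons and of fewer libraries also held fewer samples, and their counts moved in both directions. The causes of these shifts were not tested.

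Uncalled differences that turned direction with array weights were Ctsd at -0.0495 in TBI against control, Ctsa, Ctsb and Ctsh at 0.14, 0.22 and 0.10 in TBI+DEIX against TBI, Ctsa and Ctsb at 0.055 and 0.0506 in TBI+DEIX against control, and Ctsb and Ctss at 0.0798 and 0.0358 in the interaction. Ctss in TBI+DEIX against TBI had -0.0924 with the sum scaling and -0.0043 with median-of-ratios scaling. With a library left out, TBI against control ranged from -0.18 to 0.0646 (Ctsa), -0.0076 to 0.19 (Ctsd) and -0.42 to 0.37 (Ctse). TBI+DEIX against TBI ranged from -0.34 to 0.18 (Ctsa), -0.093 to 0.15 (Ctsb), -0.58 to 0.13 (Ctsh) and -0.32 to 0.45 (Ctss). Ctsl in DEIX against control ranged from -0.15 to 0.11. TBI+DEIX against control ranged from -0.40 to 0.12 (Ctsa) and -0.21 to 0.0245 (Ctsb). The interaction ranged from -0.21 to 0.0268 (Ctsb), -0.65 to 0.12 (Ctss) and -0.14 to 0.10 (Ctsz).

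Same-numbered libraries did not deviate together: over 18 pairs r ran from -0.447 to 0.242, 3 exceeded 0.1, and 2 of 12 libraries were closest to their own number. The replicate block is therefore given only as counts and, for Ctse and Ctsd, as lost calls. Total reads are unknown, so no interval for counting error could be given, and the 4 shallowest libraries, all in TBI+DEIX and DEIX, limit low genes most.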
